A study of Mus musculus with 4 samples.

Results

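Amino acid catabolism was examined through 33 genes that encode breakdown enzymes, chosen by name. They were looked up by their Ensembl identifiers among the 21279 gene identifiers with a UMI in the 4 count files. They cover the breakdown of tyrosine (Tat, Hpd, Hgd, Fah), of the branched-chain amino acids and propionate (Bckdha, Bckdhb, Dbt, Ivd, Mccc1, Mccc2, Hibch, Hibadh, Aldh6a1, Pcca, Pccb) and of proline (Prodh, Prodh2, Aldh4a1). The others handle glycine, serine and methyl groups (Bhmt, Bhmt2, Dmgdh, Sardh, Shmt1, Gldc, Gcsh), lysine and tryptophan (Aldh7a1, Gcdh, Kynu, Haao, Acmsd), and N-acylated or beta-amino acids (Acy1, Acy3, Agxt2). Of the 33 genes, 32 had a UMI in retained cells, and Tat, the tyrosine aminotransferase, had none in any file. The study profiled renal cortex by Drop-seq, in which each captured mRNA carries a cell barcode and a unique molecular identifier (UMI). The Akita group was 2 libraries from C57BL/6-Ins2Akita/J mice, aged 116 and 119 days, which carry a mutant insulin gene and become diabetic. They were compared with 2 libraries from Wild-type mice, aged 45 and 51 days, so age ran with genotype and their parts cannot be told apart. The labels describe 24 weeks of housing, which is longer than any of these ages, and 8 mice per group. Cortex came from 1 kidney and was digested with collagenase IV, and the Ins2 mutation is carried by every cell of the animal rather than by a chosen cell type.

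The breakdown of amino acids is shared between liver and kidney, and in the kidney it lies mainly in the proximal tubule, which takes filtered amino acids back up. Most of these enzymes sit in mitochondria, where the carbon skeletons enter the citric acid cycle or leave as glucose or ketone precursors. The branched-chain pathway, in contrast, is used by many tissues, since its first steps do not depend on the liver. Inherited loss of several of these enzymes causes human metabolic disease, such as tyrosinaemia with FAH, alkaptonuria with HGD and propionic acidaemia with PCCA or PCCB.

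The 4 files held 1016719 and 1200209 UMIs for Akita and 1303453 and 1115055 UMIs for wild type. After filtering, Akita contributed 311 and 600 cells and wild type 564 and 441, 1916 together, with library medians between 746.5 and 835 UMIs. Akita replicate 2 and Wild-type replicate 1 shared 884 barcodes, against 3 or 4 for every other pair of libraries. They made up 73.0% of the cells and 88.4% of the UMIs kept from Akita replicate 2. In Wild-type replicate 1 they made up 80.5% of the cells and 91.5% of the UMIs kept. All 424 barcodes kept from both files were put in 1 class by either file. The UMI ratio of the 884 shared barcodes, Akita over wild type, clustered at 1.33 (363 barcodes) and at 0.546 (521 barcodes). Where each barcode was kept in 1 file, it stayed in the file it was relatively stronger in, which is an assumption. The 4 libraries are thus not 4 independent samples, which also holds for the SD over them. As deposited, the genotype comparison sets partly the same barcodes against each other, and how far this draws the groups together was not tested. Genotype values are given as deposited and also with each shared barcode in 1 file, and folds between classes count each shared cell once. Cells were clustered with the 33 genes and 73 other amino acid pathway genes left out, so the enzymes did not define the classes. The proximal tubule-like class held 1452 cells, the loop of Henle-like class 280, the intercalated-like class 115 and the connecting tubule-like class 65, and 4 cells stayed unnamed. The loop of Henle-like class was led by Pvalb, Slc12a1 and Egf and had 3 distal convoluted tubule markers beside 4 loop markers among its top 50 genes, so it holds both kinds of cell. Podocyte and endothelial markers summed to at most 12.8 and 9.26 UMIs per 1000000 UMIs (counts per 1000000, CPM) in any library, so glomerular and vascular cells were hardly sampled.

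Of the 33 genes, 30 had a promoter in the RefSeq table (build GRCm38.p6), and Dbt, Aldh7a1 and Kynu had none there. The 5 stretches printed here were picked by hand as examples of motif letters, of CG pairs or of the space between neighbouring genes. Each runs 5′ to 3′ and stops at the first annotated transcript base. Prodh2 at chr7:30493408-30493621, plus strand, has in capitals the letters of the palindrome bound by hepatocyte nuclear factor 1, a transcription factor of the proximal tubule. Agxt2 at chr15:10358283-10358531, plus strand, has in capitals the letters of an HNF4-type site. Acy3 at chr19:3986320-3986569, plus strand, has its TATA box in capitals. Pccb at chr9:101034899-101035134, minus strand, has every CG in capitals. The stretch between Bhmt2 and Dmgdh at chr13:93674303-93674432, plus strand, separates 2 genes transcribed away from each other and also has every CG in capitals.
Prodh2: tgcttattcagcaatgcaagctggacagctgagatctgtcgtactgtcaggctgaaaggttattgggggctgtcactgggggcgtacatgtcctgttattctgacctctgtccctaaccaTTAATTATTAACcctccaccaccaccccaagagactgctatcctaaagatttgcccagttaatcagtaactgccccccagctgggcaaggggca
Agxt2: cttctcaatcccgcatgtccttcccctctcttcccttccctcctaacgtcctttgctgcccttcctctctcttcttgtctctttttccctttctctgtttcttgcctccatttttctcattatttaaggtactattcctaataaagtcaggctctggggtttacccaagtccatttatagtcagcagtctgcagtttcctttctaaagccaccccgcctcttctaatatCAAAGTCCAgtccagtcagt
Acy3: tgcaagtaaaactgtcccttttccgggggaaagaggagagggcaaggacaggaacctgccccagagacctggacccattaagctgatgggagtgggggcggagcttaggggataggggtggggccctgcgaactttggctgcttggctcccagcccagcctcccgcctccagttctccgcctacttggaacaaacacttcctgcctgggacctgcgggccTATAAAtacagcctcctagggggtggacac
Pccb: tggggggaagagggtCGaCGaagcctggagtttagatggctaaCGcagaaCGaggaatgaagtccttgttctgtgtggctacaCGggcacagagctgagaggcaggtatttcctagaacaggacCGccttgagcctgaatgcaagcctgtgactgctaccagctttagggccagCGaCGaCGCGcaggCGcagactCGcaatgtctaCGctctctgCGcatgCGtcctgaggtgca
Bhmt2-Dmgdh: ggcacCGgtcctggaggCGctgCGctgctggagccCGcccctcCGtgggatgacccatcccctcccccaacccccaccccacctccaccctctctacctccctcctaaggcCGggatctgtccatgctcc

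The Prodh2 match to GTTAATNATTAA (searched on both strands, as were all motifs) begins 130 bases before the RefSeq start, and this motif occurred in 20 of 32851 promoters (0.0609%) and in no other of the 30 genes. The Agxt2 match to CAAAGTCCA begins 21 bases before the start, and 0.384% of promoters held it. TATAAA was found in Hgd, Acy3 and Agxt2 (12.4% of promoters), and AGGTCA, the core letters of nuclear receptor sites, in 7 of the 30 (14% of promoters), and no motif's letters contain another's. A match of letters is a description of the sequence, not of binding. CpG content, as observed over expected CG pairs in the 250 bases before the start, had a median of 0.63 in the 10 branched-chain and propionate promoters. It was 0.58 in the 7 promoters of glycine, serine and methyl group genes and 0.44 in the 3 of proline genes. The medians were 0.30 for the acylase and beta-amino acid genes, 0.29 for lysine and tryptophan and 0.23 for tyrosine, against 0.37 over all 32851 promoters (quartiles 0.17 and 0.72). The ranges of the groups were wide and overlapped, and the difference between groups was not tested; Mccc1 of the branched-chain group had 0.14 and Fah of the tyrosine group 0.79.

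Summed by pathway, the enzymes were higher in proximal tubule-like than in loop of Henle-like cells, with the smallest ratio for the branched-chain and propionate group. Their summed level was 5354 ± 238 CPM in proximal tubule-like cells and 2071 ± 103 CPM in loop of Henle-like cells (mean ± SD, n = 4 libraries). It was 1910 ± 284 CPM in intercalated-like and 2006 ± 361 CPM in connecting tubule-like cells. By library, the log2 ratio of proximal tubule-like over loop of Henle-like cells was 1.24 and 1.5 in Akita and 1.27 and 1.46 in wild type, a mean of 1.37 ± 0.13. A CPM value relates a gene's UMIs to all UMIs of the class in that library, and is not divided by gene length. Cells of the classes had like depth, with medians of 785.5 UMIs in proximal tubule-like and 805.5 in loop of Henle-like cells.

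**Figure D1:**
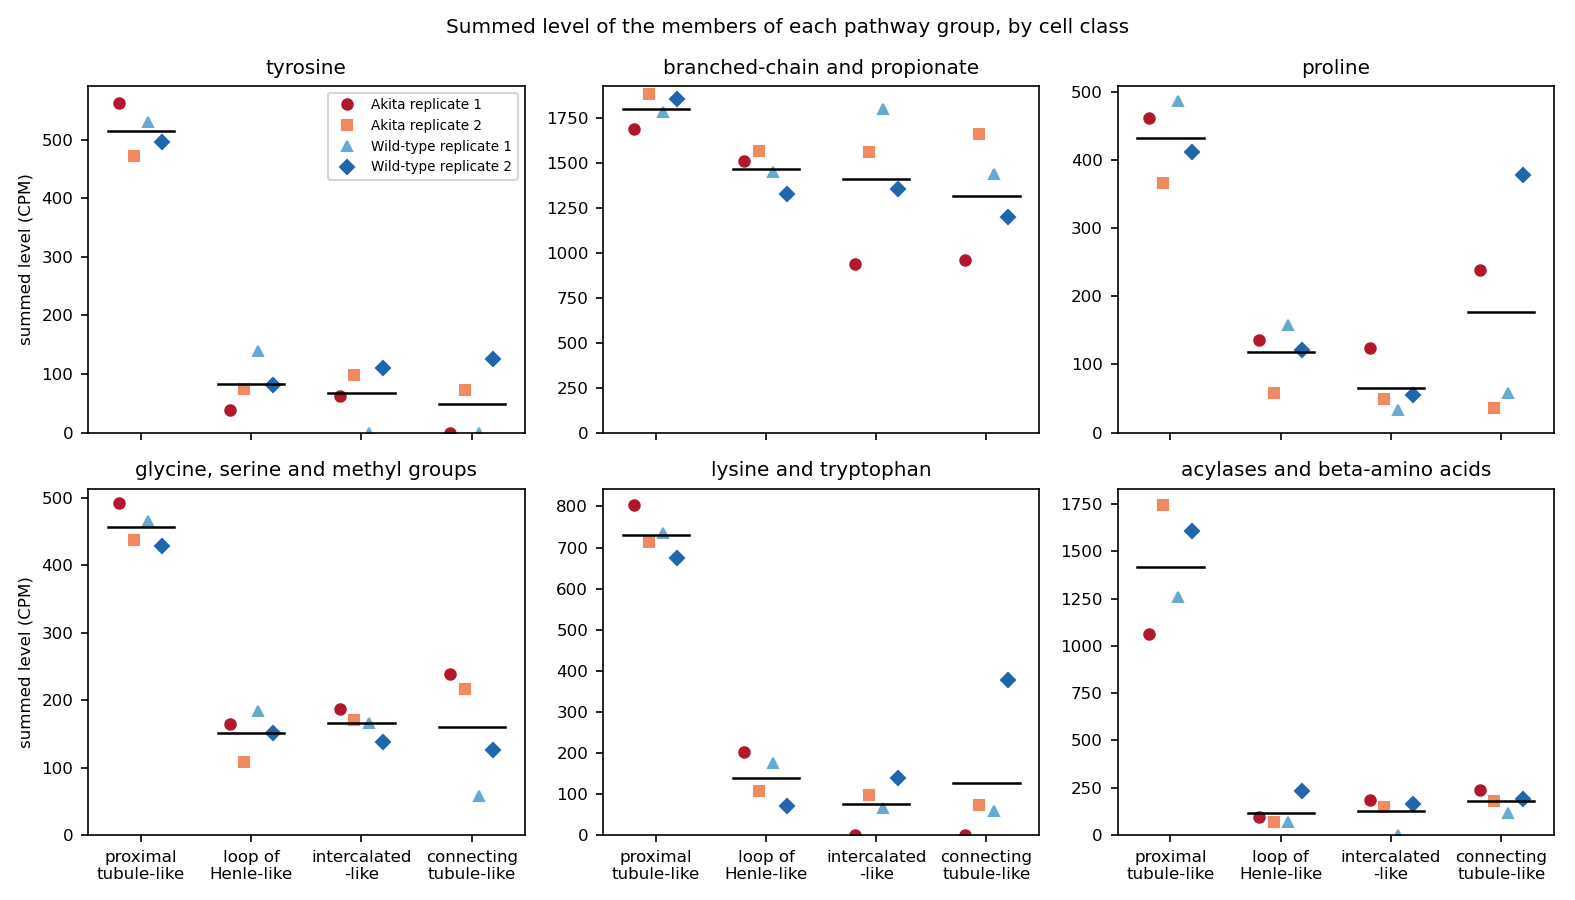
Summed level in CPM (vertical axes, starting at 0) of the members of each pathway group in each cell class (horizontal axis), with 1 point per library and the mean of 4 libraries as a line. The branched-chain and propionate group averaged 1800 CPM in proximal tubule-like cells and 1462 CPM in loop of Henle-like cells. It has the most members and was the highest group in every class shown, the proximal tubule-like class included. All 6 groups were higher in proximal tubule-like than in loop of Henle-like cells in all 4 libraries.

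Free RNA released during dissociation can put UMIs of proximal tubule genes into other cells, but its amount was not measured. For comparison, the same folds were taken for 12 proximal tubule genes not known from loop of Henle cells. Unlike the members, these 12 genes were not left out of the clustering and were among the markers that named the classes. The making of the classes may thus have set part of the range of these genes. The level of the 12 genes was between 3.60-fold (Slc6a19) and 11.7-fold (Slc22a12) higher in proximal tubule-like than in loop of Henle-like cells. At least 1 Kap UMI was seen in 96.9% of proximal tubule-like and 94.6% of loop of Henle-like cells. Slc6a19 and Slc5a12 (4.62-fold) were the lowest, and the other 10 began at 5.79-fold (Kap). The members' folds are set beside this range as a description, and how much of a member's loop of Henle-like level was free RNA was not tested. Gcdh, Haao, Prodh, Acy1, Bhmt2 and Fah lay between the 2 lowest of these genes. Among 5740 genes with at least 50 UMIs, 29.3% were higher in proximal tubule-like cells in all 4 libraries, and 21 of the 29 members so measured were. Of the 73 other pathway genes, 33 of 57 measured were higher in all 4. Another 20.5% of all genes were lower in all 4 libraries, and 3 of 29 members were, namely Bckdhb, Dbt and Shmt1, against 13 of 57 other pathway genes. The median log2 ratio was 1.69 for the members, 0.96 for the other pathway genes and 0.06 for all genes. No p is given for classes, which were made by clustering the same cells.

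The tyrosine enzymes were found mainly in proximal tubule-like cells. Fah, fumarylacetoacetase, which completes tyrosine breakdown, was measured at 245 and 253 CPM in Akita and 265 and 269 CPM in wild type in these cells. In loop of Henle-like cells it was at 38.7 and 58.0 CPM in Akita and 87.3 and 60.7 CPM in wild type. The classes did not overlap, and the fold of 4.59 (95% counting interval 2.94 to 7.59) lay inside the range of the proximal tubule genes. Hgd, homogentisate dioxygenase, which opens the aromatic ring, averaged 233 ± 35.5 CPM in proximal tubule-like and 18.0 ± 19.0 CPM in loop of Henle-like cells, a 13.8-fold difference (6.28 to 37.8). Hpd, the dioxygenase before it, had few UMIs, at 24.4 ± 12.4 CPM in proximal tubule-like and 4.25 ± 4.92 CPM in loop of Henle-like cells. Gstz1, the isomerase between Hgd and Fah, which is outside the 33, averaged 176 CPM in proximal tubule-like and 32.2 CPM in loop of Henle-like cells.

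Members of the branched-chain and propionate group had folds on both sides of 1, although their sum was higher in proximal tubule-like cells. Pccb (ENSMUSG00000032527, chr9:100982032-101034898, minus strand), the beta subunit of propionyl-CoA carboxylase, had 323 and 430 CPM in Akita and 380 and 465 CPM in wild type in proximal tubule-like cells. In loop of Henle-like cells it had 425 and 439 CPM in Akita and 358 and 273 CPM in wild type. The ranges overlapped, and the fold was 1.08 (0.894 to 1.31). Its level was 476 CPM in intercalated-like and 375 CPM in connecting tubule-like cells. Pcca, the alpha subunit of the same enzyme, whose exons overlap Ggact on the opposite strand, overlapped as well, at 174 ± 35.2 CPM in proximal tubule-like and 188 ± 39.6 CPM in loop of Henle-like cells (fold 0.90, 0.684 to 1.19). Hibadh, 3-hydroxyisobutyrate dehydrogenase of valine breakdown, was modestly higher in proximal tubule-like cells, at 418 ± 52.4 against 269 ± 36.6 CPM in loop of Henle-like cells (fold 1.51, 1.22 to 1.90).

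The branched-chain ketoacid dehydrogenase carries out the committed step of leucine, isoleucine and valine breakdown, and of its subunits Bckdhb was lower in proximal tubule-like cells. Bckdhb (chr9:83925145-84124240, plus strand), the E1 beta subunit, had 30.0 and 17.7 CPM in Akita and 23.1 and 25.3 CPM in wild type in proximal tubule-like cells. In loop of Henle-like cells it had 67.7 and 99.4 CPM in Akita and 105 and 70.9 CPM in wild type. All 4 libraries were higher in the loop of Henle-like class, and the proximal tubule-like level was 0.28 of it (0.171 to 0.461). Bckdhb was at 20.5 CPM in intercalated-like and 18.0 CPM in connecting tubule-like cells, on 2 UMIs in each class with shared cells counted once. Dbt, the E2 core, was lower in proximal tubule-like cells in every library but by little, 141 ± 19.6 against 165 ± 35.1 CPM (fold 0.89, 0.663 to 1.2). Bckdha, the E1 alpha subunit, had 3 UMIs in all retained cells, so its class pattern was not measurable. B3gnt8 overlaps its exons on the opposite strand, and the part of this overlap in the low count was not tested.

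The later enzymes of the pathway ranged between these. Ivd, isovaleryl-CoA dehydrogenase of leucine breakdown, averaged 128 ± 15.9 CPM in proximal tubule-like and 85.9 ± 30.9 CPM in loop of Henle-like cells (fold 1.41, 0.974 to 2.12), and 180 CPM in intercalated-like cells. The paired subunits of methylcrotonyl-CoA carboxylase had folds of 1.22 for Mccc1 (0.828 to 1.86), which antisense genes overlap, and 0.83 for Mccc2 (0.50 to 1.45). Hibch, the hydrolase of valine breakdown, had a fold of 1.17 (0.630 to 2.37). Aldh6a1, methylmalonate semialdehyde dehydrogenase, stood apart within the group, at 316 ± 63.1 CPM in proximal tubule-like and 111 ± 23.0 CPM in loop of Henle-like cells. Its fold of 2.83 (2.04 to 4.02) had an interval that reached the range of the proximal tubule genes, and Bbof1 overlaps it on the opposite strand. For 9 of the 11 members of this group the interval lay wholly below that range, and Shmt1 was the only member outside the group of which this held.

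The genes around this pathway that are not among the 33 also had folds on both sides of 1. Oxct1, which activates acetoacetate, averaged 1348 CPM in proximal tubule-like and 4797 CPM in loop of Henle-like cells, a fold of 0.31 (0.290 to 0.329). Acat1, the thiolase of isoleucine and ketone breakdown, had 1025 and 1086 CPM in the same order of classes (fold 0.94). The electron transfer flavoprotein subunits Etfb and Etfa, which take electrons from Ivd, Gcdh, Sardh and Dmgdh among others, had folds of 1.94 and 1.05. Among the genes with at least 50 UMIs, the interval lay wholly below the range of the proximal tubule genes for 10 of 29 members and 28 of 57 other pathway genes, beside 73.4% of all 5740 genes, so a place below it is what most genes have.

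**Figure D2:**
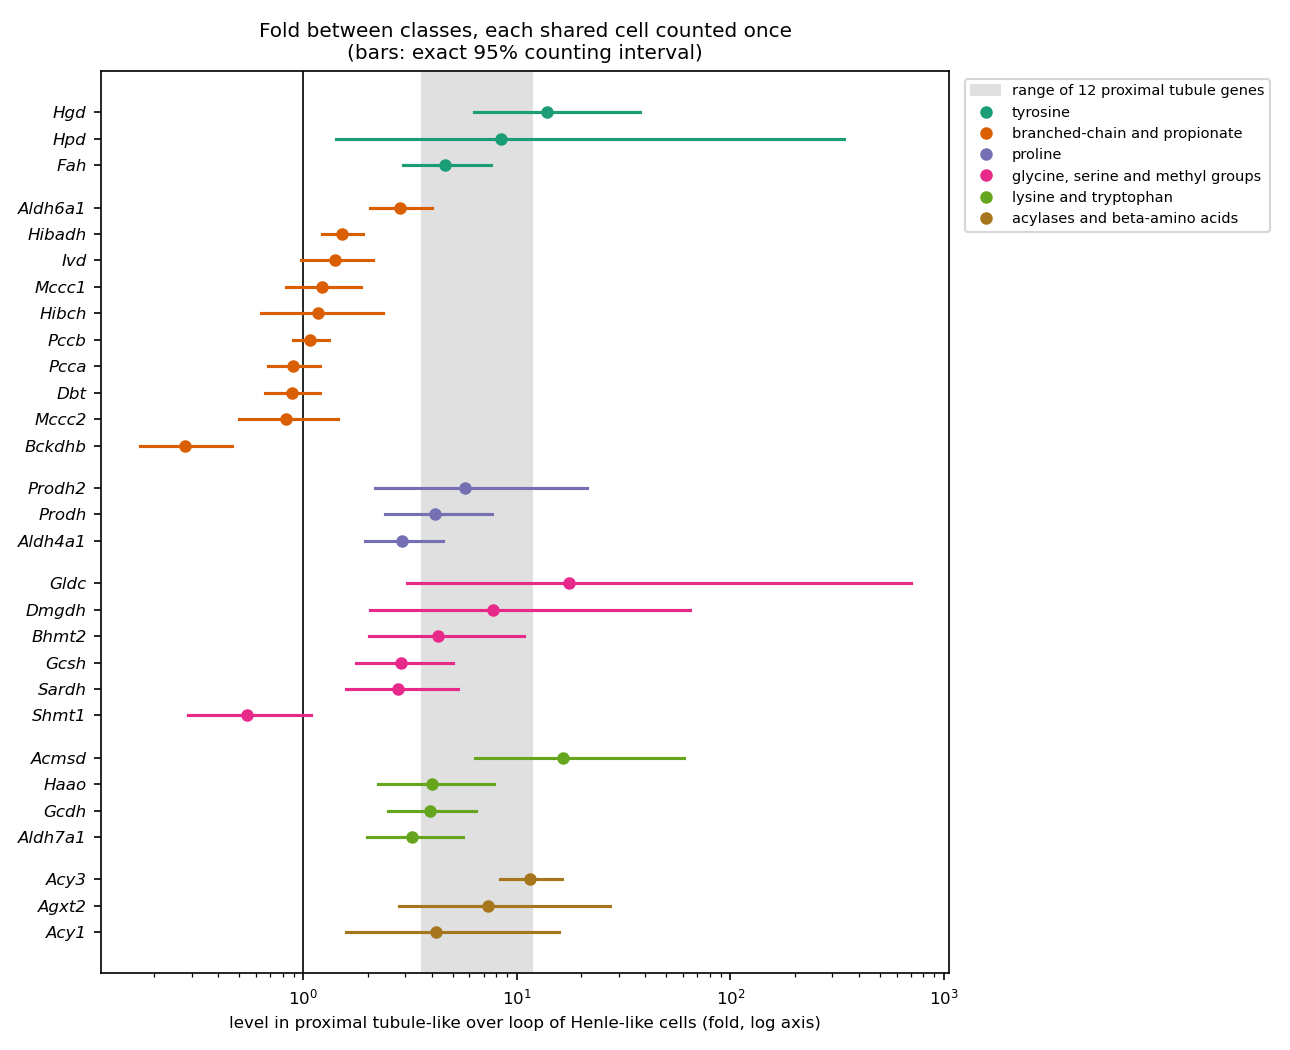
Level in proximal tubule-like over loop of Henle-like cells (horizontal log axis, fold) for each member with at least 10 UMIs, each shared cell counted once, with exact 95% counting intervals and colours for pathway groups. The grey band is the range of 12 proximal tubule genes, 3.60 to 11.7; the 9 branched-chain and propionate members left of it and Shmt1 have intervals that end before it.

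The proline enzymes were also higher in proximal tubule-like cells in all 4 libraries. Prodh, which oxidizes proline, had 127 and 166 CPM in Akita and 232 and 130 CPM in wild type in proximal tubule-like cells. In loop of Henle-like cells it had 29.0 and 24.9 CPM in Akita and 52.4 and 50.6 CPM in wild type, so the classes did not overlap (fold 4.12, 2.42 to 7.63). Prodh2, which oxidizes hydroxyproline, averaged 62.4 ± 17.9 CPM in proximal tubule-like and 9.20 ± 10.7 CPM in loop of Henle-like cells (fold 5.70). Aldh4a1, which follows both enzymes, had a smaller fold of 2.89 (1.95 to 4.49), and an annotated gene on the same strand shares exons with it.

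In the glycine, serine and methyl group set, the choline-derived route and the glycine cleavage genes Gldc and Gcsh were higher in proximal tubule-like cells. Shmt1, cytosolic serine hydroxymethyltransferase, was not. Dmgdh and Sardh strip methyl groups from dimethylglycine and sarcosine. Dmgdh averaged 43.0 ± 4.21 CPM in proximal tubule-like and 4.71 ± 5.47 CPM in loop of Henle-like cells. Sardh averaged 102 ± 7.18 and 32.4 ± 12.3 CPM in these classes. Bhmt2, a homocysteine methyltransferase separated from Dmgdh on the other strand by the 130 bases printed above, had 85.4 ± 24.1 CPM in proximal tubule-like and 16.5 ± 14.8 CPM in loop of Henle-like cells (fold 4.26, 2.02 to 10.8). With shared cells counted once, its paralog Bhmt had 32 UMIs in proximal tubule-like cells and none in loop of Henle-like cells, which gives at least a 2.08-fold difference with 3 UMIs as the limit over the class; reads of the 2 paralogs may be split. Gldc, the decarboxylase of glycine cleavage, was at 46.6 ± 19.0 CPM in proximal tubule-like and 6.44 ± 8.32 CPM in loop of Henle-like cells. Gcsh, its carrier protein, had a fold of 2.87 (1.76 to 5.0). Shmt1 had 20.8 and 19.5 CPM in Akita and 26.2 and 19.9 CPM in wild type in proximal tubule-like cells, and in loop of Henle-like cells 29.0 and 41.4 CPM in Akita and 52.4 and 40.5 CPM in wild type. It was lower in proximal tubule-like cells in all 4 libraries (fold 0.54, 0.289 to 1.08), but Smcr8 overlaps its exons on the opposite strand, and the strand setting of the counting is not given in the sources used here.

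The lysine and tryptophan enzymes were each higher in proximal tubule-like than in loop of Henle-like cells in all 4 libraries. Acmsd (ENSMUSG00000026348, chr1:127729413-127767978, plus strand), the decarboxylase that draws tryptophan breakdown away from NAD synthesis, had 212 and 184 CPM in Akita and 169 and 188 CPM in wild type in proximal tubule-like cells. In loop of Henle-like cells it had 9.67 and 8.29 CPM in Akita and 8.73 and 10.1 CPM in wild type, which is 1 UMI in each library. The fold was 16.5 (6.38 to 60.8). Haao, which makes the substrate of Acmsd, had a fold of 4.0 (2.25 to 7.84). Kynu, kynureninase, had 31 UMIs in proximal tubule-like cells, an average of 14.1 ± 9.20 CPM. Gcdh, glutaryl-CoA dehydrogenase, on which lysine and tryptophan breakdown converge, averaged 228 ± 33 CPM in proximal tubule-like and 58.2 ± 34.3 CPM in loop of Henle-like cells (fold 3.90, 2.49 to 6.45). Aldh7a1, of lysine breakdown, had a fold of 3.22 (1.98 to 5.61), with Phax overlapping on the opposite strand. Aass, which begins lysine breakdown and is outside the 33, averaged 788 CPM in proximal tubule-like and 96.0 CPM in loop of Henle-like cells.

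Of the 33 genes, Acy3 had the most UMIs. Acy3 (ENSMUSG00000024866, chr19:3986570-3990007, plus strand), aminoacylase 3, which removes acetyl groups from aromatic amino acid conjugates, had 884 and 1608 CPM in Akita and 1146 and 1506 CPM in wild type in proximal tubule-like cells. In loop of Henle-like cells it had 77.3 and 66.3 CPM in Akita and 43.7 and 202 CPM in wild type. Its fold of 11.5 (8.33 to 16.2) was near the top of the range of the proximal tubule genes, and a UMI of Acy3 was found in 52.2% of proximal tubule-like and 11.8% of loop of Henle-like cells. Acy1, aminoacylase 1, averaged 49.1 ± 14 CPM in proximal tubule-like and 9.66 ± 8.29 CPM in loop of Henle-like cells (fold 4.19, 1.58 to 15.7). Agxt2, a mitochondrial aminotransferase for beta-amino acids and methylated arginines, averaged 83.7 ± 22.9 CPM and 9.31 ± 7.16 CPM in these classes (fold 7.36, 2.82 to 27.4).

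In the intercalated-like and connecting tubule-like classes, with 93501 and 48697 UMIs counted once, 10 and 9 members had no UMI. A count of 0 there allows up to 32.1 CPM in intercalated-like and 61.6 CPM in connecting tubule-like cells. Haao, which averaged 139 CPM in proximal tubule-like cells, was among those without a UMI in intercalated-like cells. The branched-chain and propionate group, which has the most members, was the highest of the 6 pathway groups in both. It was also the highest in loop of Henle-like and in proximal tubule-like cells. This group averaged 1411 ± 366 CPM in intercalated-like and 1312 ± 302 CPM in connecting tubule-like cells. The tyrosine group averaged 67.6 ± 49.4 and 49.5 ± 61.3 CPM in the same order. Intervals and limits cover counting error only.

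The promoter CpG content was set beside these folds as a description. The 9 members with a promoter whose interval lay below the range of the proximal tubule genes had a median CpG value of 0.64 (lowest 0.14, highest 0.87). The 14 members with a fold inside or above it had a median of 0.33 (lowest 0.09, highest 0.79). Pccb, whose ranges overlapped between the classes, had 0.79 with the many CG pairs printed above, while Prodh2 and Hgd, with proximal folds of 5.70 and 13.8, had 0.12 and 0.11. Several members go the other way. Fah, Dmgdh and Bhmt2 had folds inside the range and CpG values of 0.79, 0.65 and 0.62. Mccc1, with an interval below the range, had 0.14. The 5 members with a promoter and a fold below the range, but an interval that reached it, had a median of 0.53.

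Within the proximal tubule, 2 clusters could be named. The S3-like cluster (386 cells, led by Slco1a1, Slc7a13 and Napsa) and the S1-like cluster (276 cells, with Spp2, Cyp2d26 and Slc2a2 among its leading genes) had median depths of 619 and 615.5 UMIs. No S2-like cluster was found, and the other 4 proximal clusters had no segment name. The S3-like cluster had 4 S3 markers and 1 S2 marker among its top 50 genes. Of the S2 markers, Slc22a6, Slc22a12 and Slc13a3 were 2.47-, 1.96- and 1.45-fold higher in it than in S1-like cells. Slc34a1 and Slc22a8 were at 0.61 and 0.52 of the S1-like level. Whether it also holds S2 cells was not tested. The summed level was close in the S3-like and S1-like clusters, at 5014 ± 396 and 4644 ± 493 CPM. Of 1286 genes with at least 50 UMIs in these clusters, 14.6% were higher in S3-like cells in all 4 libraries and 15.1% lower. Of 18 members so measured, 2 were higher (Acy3 and Pcca) and 3 lower (Prodh, Aldh7a1 and Acmsd), which is near the share of all genes. The counting intervals of Pcca, Aldh7a1 and Acmsd included 1.

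Acy3 had 892 and 1796 CPM in Akita and 1520 and 1368 CPM in wild type in S3-like cells. In S1-like cells it had 331 and 567 CPM in Akita and 394 and 855 CPM in wild type. The clusters did not overlap, and the S3-like level was 2.84 times the S1-like level (2.24 to 3.64). Kap, an S3 marker also found in 94.6% of loop of Henle-like cells, had a fold of 4.31 between the same clusters. The part of free RNA in the Acy3 difference was not tested. Prodh ran the other way, with 30.7 and 84.6 CPM in Akita and 139 and 53.1 CPM in wild type in S3-like cells. In S1-like cells Prodh had 151 and 189 CPM in Akita and 298 and 275 CPM in wild type. Its S3-like level was 0.24 of the S1-like level (0.122 to 0.444), and it was lower in every library.

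Of the 10 members with at least 10 but under 50 UMIs in these clusters, 3 were lower in S3-like cells in all 4 libraries (7.72% of 3770 genes at this depth) and 2 were higher (8.41%). Prodh2 and Gldc were at 0.28 (0.0899 to 0.740) and 0.30 (0.0948 to 0.796) of the S1-like level, and Shmt1 was at 0.11 (0.00250 to 0.877) on 1 UMI in S3-like and 7 UMIs in S1-like cells, shared cells counted once. Bhmt2 and Acy1 were the higher ones, at 1.77 (0.734 to 4.72) and 2.37 (0.590 to 13.6), intervals that include 1. Aldh4a1, which follows both proline enzymes, had a ratio of 0.79 (0.520 to 1.2). The proline group as a whole was at 306 ± 33.5 CPM in S3-like and 593 ± 132 CPM in S1-like cells. The branched-chain and propionate group was at 1750 ± 198 CPM in S3-like and 1709 ± 314 CPM in S1-like cells. Hibadh, Pccb, Ivd, Mccc1, Dbt and Fah each had an interval that included 1.

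**Figure D3:**
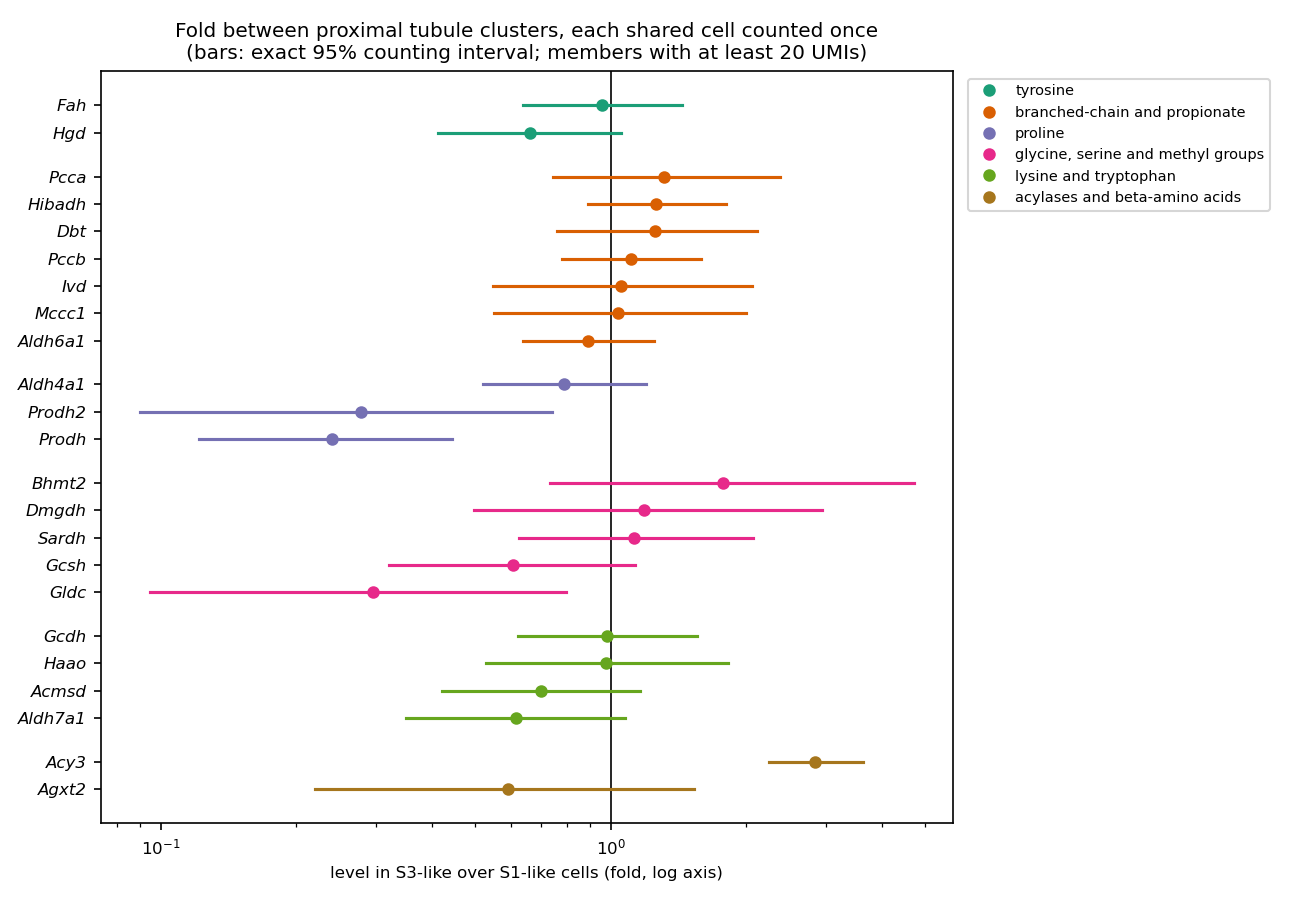
Level in S3-like over S1-like cells (horizontal log axis, fold) for each member with at least 20 UMIs in both clusters together, each shared cell counted once, with exact 95% counting intervals. Acy3 is at 2.84, and Prodh, Prodh2 and Gldc lie left of 1 with intervals that end before it.

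Akita and wild-type libraries did not differ in any of the enzymes past the threshold. In proximal tubule-like cells, edgeR's quasi-likelihood test with Benjamini-Hochberg adjustment called 0 of 31 tested members, with 0.0% of 6108 genes called. At an unadjusted p under 0.05 it found 0 members and 55 genes (0.9%), DESeq2 found 6 genes and limma-voom 54. Over all retained cells it likewise called 0 of 31 members and 0.0% of 7169 genes, with 68 genes (0.949%), 7 by DESeq2 and 57 by limma-voom at an unadjusted p under 0.05. With each shared barcode in 1 file it called 0 of 28 members and 0.0% of 5285 genes in proximal tubule-like cells, and Prodh and Acy1 had an unadjusted p under 0.05, beside 2.71% of genes. Over all cells kept in 1 file each, 0 of 29 members were called among 6306 genes (0.0%), and Prodh and Acy1 again had an unadjusted p under 0.05, beside 3.16% of genes. The 2 libraries of a group come from animals of different labelled age. The median log2 fold change was -0.01 for the members and 0.00 for all genes in proximal tubule-like cells, with a median standard error of 0.29 per member. Small changes were thus not detectable with these libraries, and the 0 calls do not show that larger changes were absent. In bulk sums over all cells, fewer cells of a type and less RNA per cell cannot be told apart.

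The summed level was 5071 and 5614 CPM in Akita and 5261 and 5471 CPM in wild type in proximal tubule-like cells. The groups overlapped, with a log2 ratio of -0.01, and of 0.09 with each shared barcode in 1 file. The proximal tubule-like share of retained cells was 78.8% and 73.5% in Akita and 78.5% and 73.2% in wild type. Each of the 6 pathway groups overlapped between Akita and wild type in proximal tubule-like cells. Of the 31 members, 3 had both Akita values above both wild-type values (Acy1, Agxt2 and Ivd), beside 11.7% of all genes, and 3 had both below (Dbt, Mccc2 and Fah), beside 11.1%. Over all retained cells these counts were 2 of 31 above (12.6% of all genes) and 2 below (11%). With each shared barcode in 1 file they were 3 of 28 above (13.0%) and 5 below (16.3%) in proximal tubule-like cells, and 2 of 29 above (13.5%) and 4 below (16.1%) over all cells. None of these shares stands far from that of all genes.

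**Figure D4:**
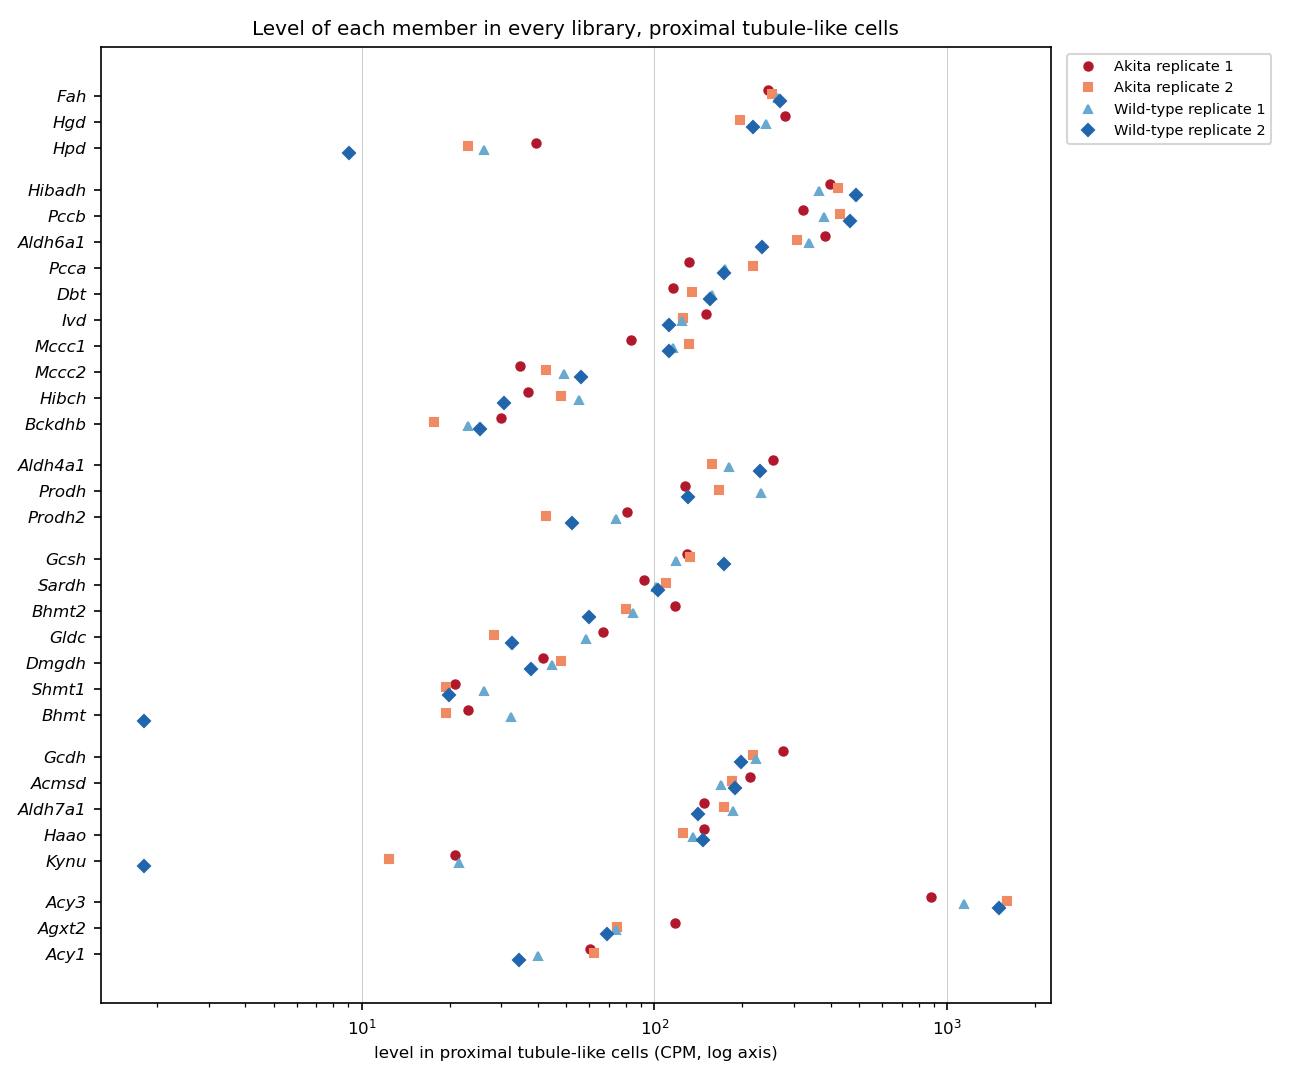
Level in CPM (horizontal log axis) of each member in proximal tubule-like cells, with 1 point per library, for members averaging over 2 CPM. Akita and wild-type points overlap for most members; Acy3 is highest, between 884 and 1608 CPM, and Acy1 has both Akita points above both wild-type points.

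The members named here are those with the smallest unadjusted p at a mean of at least 50 CPM and the highest of each pathway group, and none passed (adjusted p 0.999 for each by edgeR). Bhmt2 had 118 and 79.7 CPM in Akita and 84.6 and 59.7 CPM in wild type, which overlap (log2 fold change 0.41 ± 0.31 SE). Agxt2 had 118 and 74.4 CPM in Akita and 73.8 and 68.7 CPM in wild type (0.40 ± 0.30), with Akita replicate 1 well above the rest. Agxt2 with each shared barcode in 1 file had 118 and 53.0 CPM in Akita and 99.7 and 68.7 CPM in wild type, and its log2 fold change was 0.06 ± 0.39. Dbt had 115 and 135 CPM in Akita and 157 and 155 CPM in wild type (-0.32 ± 0.25), both Akita libraries being lower. With shared barcodes left out its log2 fold change was -0.03 ± 0.48.

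Prodh had 127 and 166 CPM in Akita and 232 and 130 CPM in wild type (log2 fold change -0.31 ± 0.30), and Wild-type replicate 1 was the high library. Counted with each shared barcode in 1 file, Prodh had 127 and 106 CPM in Akita and 306 and 130 CPM in wild type (-0.87 ± 0.38, unadjusted p 0.038, adjusted p 1.00 by edgeR). Without Wild-type replicate 1 the direction turned, to 0.23. That library had the largest S1-like share of its proximal tubule-like cells, 26.0%, against 12.7% in Wild-type replicate 2 and 17.6% and 17.5% in Akita, and the part of this share in the Prodh values was not tested. Acy3 had a log2 fold change of -0.07 ± 0.29. With each shared barcode in 1 file it had 884 and 2074 CPM in Akita and 560 and 1506 CPM in wild type, which turned the direction to 0.60 ± 0.46, and the groups still overlapped. The S3-like share of proximal tubule-like cells was 21.6% and 29.9% in Akita and 20.8% and 33.7% in wild type, so that replicate 2 of both groups was high in Acy3 and in S3-like cells, and the part of this share was not tested.

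Among the branched-chain genes, Aldh6a1 had 383 and 308 CPM in Akita and 338 and 233 CPM in wild type (log2 fold change 0.25 ± 0.24). Ivd had 150 and 126 CPM in Akita and 125 and 112 CPM in wild type (0.20 ± 0.25), a separation smaller than the gap between the Akita libraries. Pccb and Hibadh, the members of the group with the most UMIs, overlapped between genotypes (-0.15 ± 0.24 and -0.05 ± 0.23), and Hibadh was at 0.14 with each shared barcode in 1 file. Gcdh was at 0.21 ± 0.23, Fah at -0.10 ± 0.22, Aldh4a1 at -0.01 ± 0.25 and Gcsh at -0.15 ± 0.26.

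Acy1, at 49.1 CPM just under the level set for naming and so picked after its values were seen, had the smallest p of the 31 members. It had 60.0 and 62.0 CPM in Akita and 40.0 and 34.3 CPM in wild type, with 106 UMIs in all. The groups did not overlap (log2 fold change 0.70 ± 0.34, unadjusted p 0.055, adjusted p 0.999 by edgeR). With each shared barcode in 1 file it had 60.0 and 76.8 CPM in Akita and 28.5 and 34.3 CPM in wild type (1.15 ± 0.40, unadjusted p 0.013, adjusted p 1.00 by edgeR), and with shared barcodes left out the log2 fold change was 0.72 ± 0.59. Mccc2 had 34.6 and 42.5 CPM in Akita and 49.2 and 56.0 CPM in wild type (-0.43 ± 0.35).

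**Figure D5:**
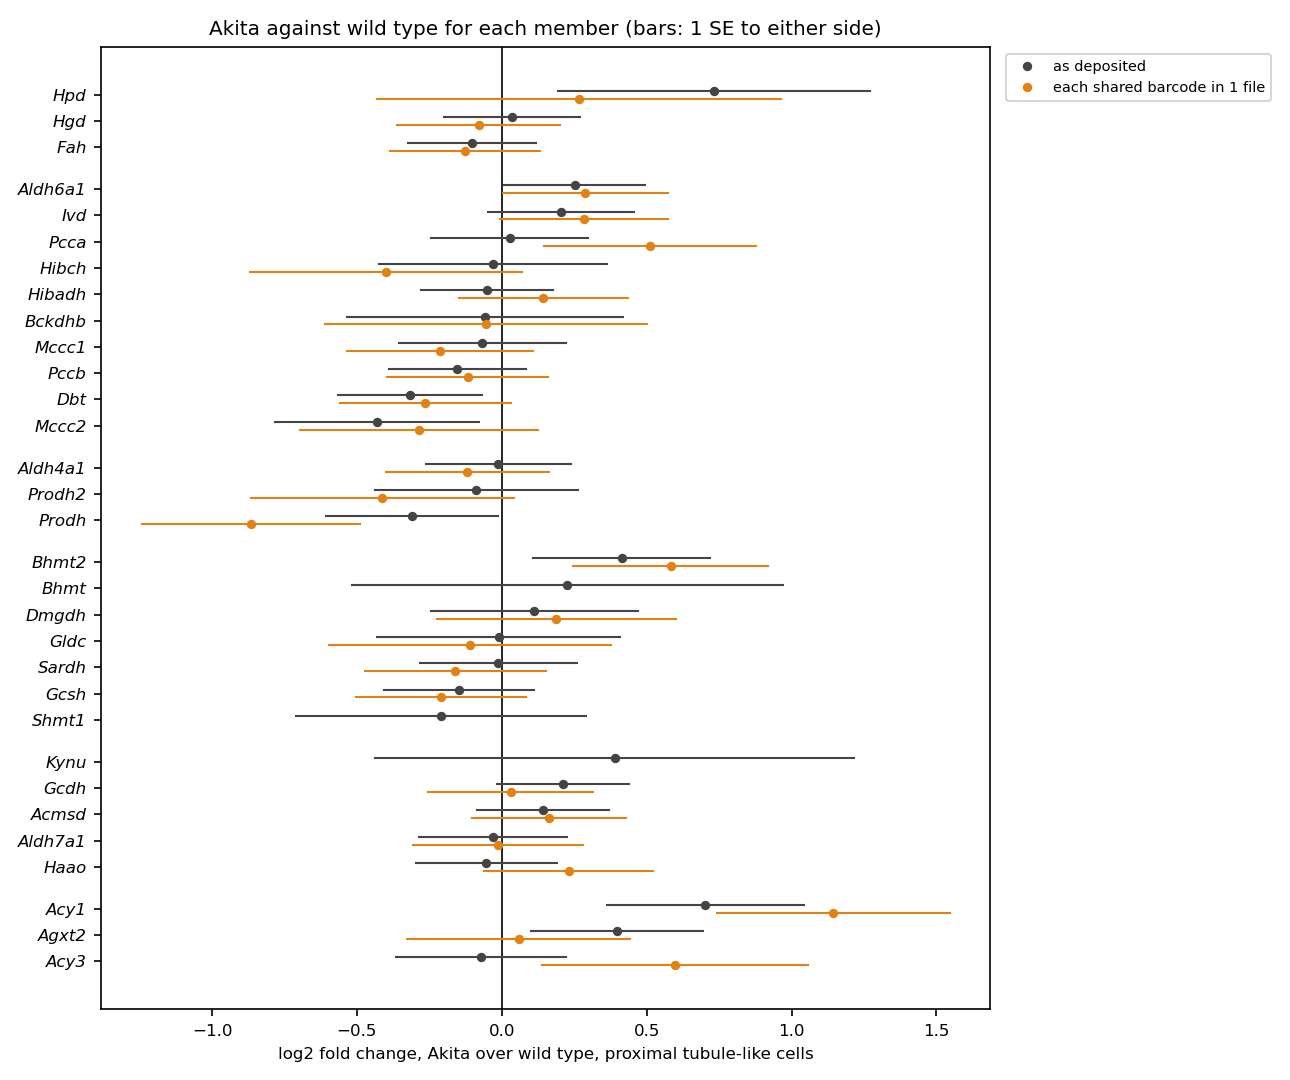
Log2 fold change of Akita over wild type in proximal tubule-like cells (horizontal axis) for each member tested, as deposited and with each shared barcode in 1 file, with bars of 1 standard error to either side. As deposited, every member lies between -0.43 and 0.73, and no member had an adjusted p under 0.05 in either form.

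Of the other 73 amino acid pathway genes, 58 were tested in proximal tubule-like cells and 0 were called. The 5 with the highest CPM there were Oxct1, Acat1, Etfb, Aass and Etfa. Oxct1 had the smallest unadjusted p of these 58 genes, 0.068, at a log2 fold change of -0.57 (adjusted p 0.999 by edgeR).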

How the data were processed

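The data are Drop-seq UMI counts of renal cortex, 2 Akita and 2 wild-type libraries. The authors deposited raw counts per gene and barcode, with STAR 2.5.2b, featureCounts 1.6.0, UMI-tools 0.5.3 and the build GRCm38 named in the submitters' processing notes; the counting strand is not given in the sources used here. In each file 4 strings were no barcodes (1.08% to 1.33% of UMIs) and were left out. Cells had at least 200 genes and at most 50% mitochondrial UMIs. They were clustered with scanpy 1.11.5 and leidenalg 0.10.2 (resolution 1), and a cluster was named by at least 3 markers among its top 50 genes. A difference from the study may come from these rebuilt names. Scrublet marked 0, 2, 1 and 3 doublets, which were kept; this caller marked so few that doublets may remain. Counts were summed per library and tested with edgeR 4.0.16 in R 4.3.3 (TMM, filterByExpr, quasi-likelihood, two-sided, Benjamini-Hochberg, threshold 0.05), with DESeq2 1.42.0 and limma 3.58.1 (voom) beside it. Each test was run on simulated data with independent libraries, which does not cover barcodes shared between libraries. Intervals between classes are exact binomial at 95%. Coordinates are 1-based on GRCm38 (GENCODE). Besides the overlaps given above, exons of other annotated genes overlap Hibadh and Agxt2 on the same strand. They overlap Acmsd, Sardh, Dmgdh and Bhmt on the opposite strand. Named were any called member, the 8 with the smallest p at 50 CPM or more, and the highest of each pathway group. The 33 genes, the lists and the rules were chosen with earlier results of these data known. As deposited, libraries of the same replicate number had a correlation of deviations of -0.23 in proximal tubule-like cells. The crossed pair of Akita replicate 2 and Wild-type replicate 1 shares barcodes, so this value cannot tell whether replicate numbers pair the libraries. Alternatives were other tools, filters, classes, handling of shared barcodes and each library left out.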

Additional observations from a re-analysis of the deposited data

How the results depend on the processing

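No member was called under any alternative run, including each library left out. The count of genes called, 0 as deposited, was 1 with no filter on low counts over all retained cells and 1 in proximal tubule-like cells. It was 12 in proximal tubule-like cells with each shared barcode in 1 file and a replicate block, chosen after seeing the data. Leaving out a library gave 0 to 23 calls over all cells (23 without Akita replicate 2, 14 without Wild-type replicate 1) and 0 to 14 in proximal tubule-like cells (11 and 14 without these); the cause was not tested. The replicate block gave 0 calls in both comparisons, with 75 genes at an unadjusted p under 0.05 over all cells and 58 in proximal tubule-like cells, and the pairing by number had correlations of deviations of -0.25 and -0.23. The crossed pairing, added after seeing the data, gave 0 calls in both.

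The summed level in proximal tubule-like over loop of Henle-like cells stayed between 1.32 and 1.41 on the log2 scale in the alternatives run; at Leiden resolution 0.5 no loop of Henle-like class was named, so it has no value there. The summed genotype ratio moved to 0.090 with each shared barcode in 1 file, and leaving out a library gave -0.08 to 0.07. For named members 23 alternatives turned the direction and 257 did not. With each shared barcode in 1 file Acy3 was at 0.60 (0.60 with the replicate block, 0.61 by DESeq2, 0.61 by limma-voom) and at 0.55 with shared barcodes left out. Hibadh was at 0.14, 0.18, 0.15, 0.18 and 0.13 in the same order. Agxt2 was at -0.0040 with 1 file and the replicate block. Aldh4a1 was at 0.052 with at least 500 genes per cell and 0.018 with at most 25% mitochondrial UMIs. Leaving out a library gave Prodh -0.70 to 0.23, Aldh6a1 -0.034 to 0.60, Pccb -0.46 to 0.079, Hibadh -0.20 to 0.12, Aldh4a1 -0.32 to 0.24, Gcsh -0.36 to 0.092 and Acy3 -0.66 to 0.33. Depth limits members under about 100 UMIs (Hpd, Bckdhb, Bhmt, Shmt1, Kynu, Dmgdh), whose folds have wide intervals.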
